A study of Bombus terrestris with 33 samples.

Results

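In the brains of bumble bee queens with developed ovaries, 100 contigs (the sequences to which reads were counted) had a lower average level than in each of the other 3 kinds of queen. They were selected on these measured levels, out of 10672 contigs in the table, of which 3924 were abundant enough to be considered. For each contig the level was y, the log2 of CPM plus 1 (CPM, the reads of a contig scaled to 1 common library total), minus the median of its library over contigs averaging at least 5 CPM. Contigs averaging at least 1 CPM, outside the 100 most abundant, were considered. The 4 group means of y were sorted, and a contig was eligible where the largest gap between neighbouring means left the developed-ovary queens alone at the bottom. The 100 eligible contigs with the highest score, which is that gap divided by the average standard deviation (SD) within groups, were taken. They were 2.55% of the contigs considered, and 367 (9.35%) had the developed-ovary queens alone at the bottom before the highest scores were taken. All differences between the developed-ovary queens and the other groups are therefore descriptions of how the set was made.

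The queens were Bombus terrestris from commercially supplied colonies, with 1 RNA sequencing library for each of 33 brains. SR queens (n = 8) had mated, were hibernated for 8 weeks at 5 °C and were frozen 1 month after leaving hibernation, when their ovaries were fully developed and held mature eggs. FR queens (n = 8) had the same history but undeveloped ovaries. SM queens (n = 8) were frozen 3 days after mating and never hibernated. FM queens (n = 9) were offered males at 5 days of age, did not mate and were not hibernated either. SR and FR queens were thus sorted by the state of their ovaries at dissection and not by a treatment, and hibernation and a greater age separate both from SM and FM queens. The labelled ages, which carry no unit and are read as days, were 94 to 97 in SR, 91 to 102 in FR, 11 to 20 in SM and 6 to 27 in FM queens. SR and FR queens came from colonies C2, C3 and C9, and SM and FM queens came from C2, C3 and C7, so queens of 1 colony are not independent families. Each brain was exposed by cutting away the outer parts of a frozen head. Libraries held 42858092 to 61560882 reads counted to contigs. None of the 10672 contig identifiers matched any of 13398 genes of the reference annotation, so brain markers could not be read, and no gene name or function is given to any contig.

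A bumble bee queen mates soon after leaving her mother colony, spends the winter alone in the soil, and in spring activates her ovaries and founds a nest without workers. Ovary activation in Bombus terrestris is promoted by juvenile hormone, which the corpora allata behind the brain release under the control of neurosecretory cells, and the yolk protein vitellogenin is made in the fat body and taken up by the growing eggs. The brain of a founding queen also takes on new behaviour, including nest building, brooding and foraging.

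The differences that defined the set were mostly small. The gap in y between SR queens and the next lowest group had a median of 0.24 and ran from 0.11 to 1.24 on the log2 scale; it was under 0.25 in 52 contigs and at least 1 in 2. The score ran from 1.05 to 2.01, with a median of 1.28. The contigs averaged 1.40 to 1368 CPM, with a median of 38.4 CPM against 27.1 CPM over all contigs considered, and 30 of them averaged over 100 CPM and 13 under 5 CPM. Relative to FR queens the mean y of SR queens was lower by a median of 0.35, with values of -1.59 to -0.13. Relative to SM queens the values ran from -1.78 to -0.13, and relative to FM queens from -1.28 to -0.11. FR queens were the highest of the 4 groups in 72 contigs, FM queens in 15 and SM queens in 13. The second lowest group was SM in 46 contigs, FM in 39 and FR in 15. In whole brains, fewer cells of a type and less RNA per cell cannot be told apart.

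**Figure D1:**
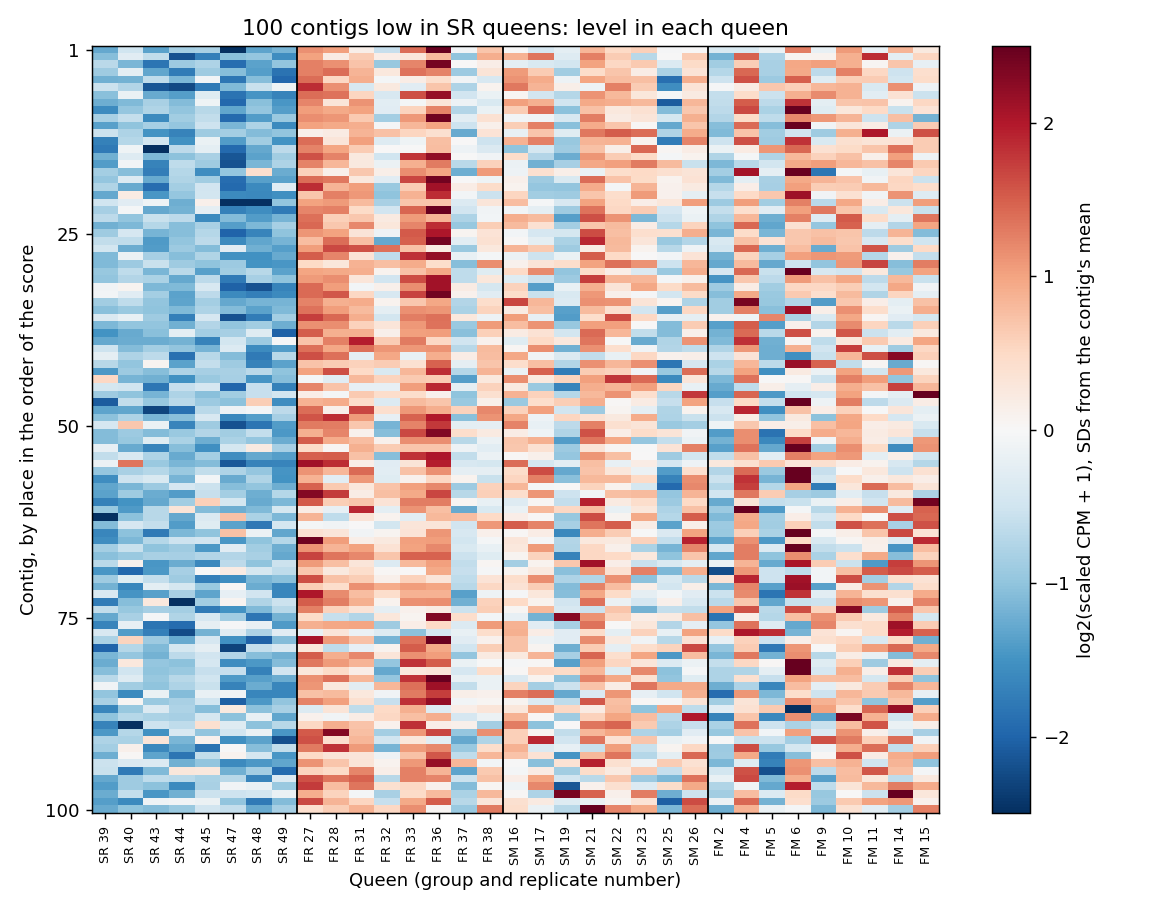
Level of the 100 contigs (rows, in order of the score) in each of the 33 queens (columns, grouped as SR, FR, SM and FM), as log2 of scaled CPM plus 1, in SDs from the mean of the contig over the queens. SR queens are low across the rows, and several single columns in the other groups, such as FM queens 2 and 5, are low as well.

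The 2 contigs with the highest scores are shown here as scaled CPM, which is CPM divided by the centring factor of the library. Contig8885, first in the order of the score, had 13.4, 16.1 and 17.7 scaled CPM as the lowest, median and highest values in SR queens, 17.5, 21.3 and 27.1 in FR queens, 17.9, 19.0 and 21.2 in SM queens, and 18.0, 18.6 and 22.6 in FM queens. SR queens were the lowest, and 1 other queen, FR queen 32, fell within their range. Its gap in y was 0.25. Contig2648, second in the order, had 53.2, 64.9 and 74.4 scaled CPM in SR queens, 65.6, 84.9 and 93.4 in FR queens, 69.3, 87.4 and 98.8 in SM queens, and 63.4, 79.4 and 108 in FM queens. Here 5 other queens overlapped the SR range, and the gap was 0.37.

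The 2 contigs with the largest gaps spread more widely. The contig placed 44th had a gap of 1.24, with 1.62, 2.62 and 12.2 scaled CPM in SR queens, 1.93, 11.2 and 15.5 in FR queens, 1.46, 15.5 and 34.9 in SM queens, and 2.55, 7.87 and 24.4 in FM queens. SR queen 39, at 12.2, stood apart from the other SR queens, and 12 queens of other groups lay at or below it. The contig placed 12th had a gap of 1.20, with 0.883, 2.14 and 3.16 scaled CPM in SR queens, 1.52, 6.78 and 9.79 in FR queens, 2.55, 9.45 and 16.0 in SM queens, and 1.80, 4.40 and 23.2 in FM queens. All groups overlapped in both contigs. At the edge of the set, the contig placed 100th had a score of 1.0515 and mean levels of 504 scaled CPM in SR, 797 in FR, 852 in SM and 666 in FM queens. The first contig outside had a score of 1.0496 and means of 0.126 scaled CPM in SR, 3.80 in FR, 2.12 in SM and 3.25 in FM queens, so its larger gap of 1.00 belonged to a rare contig.

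**Figure D2:**
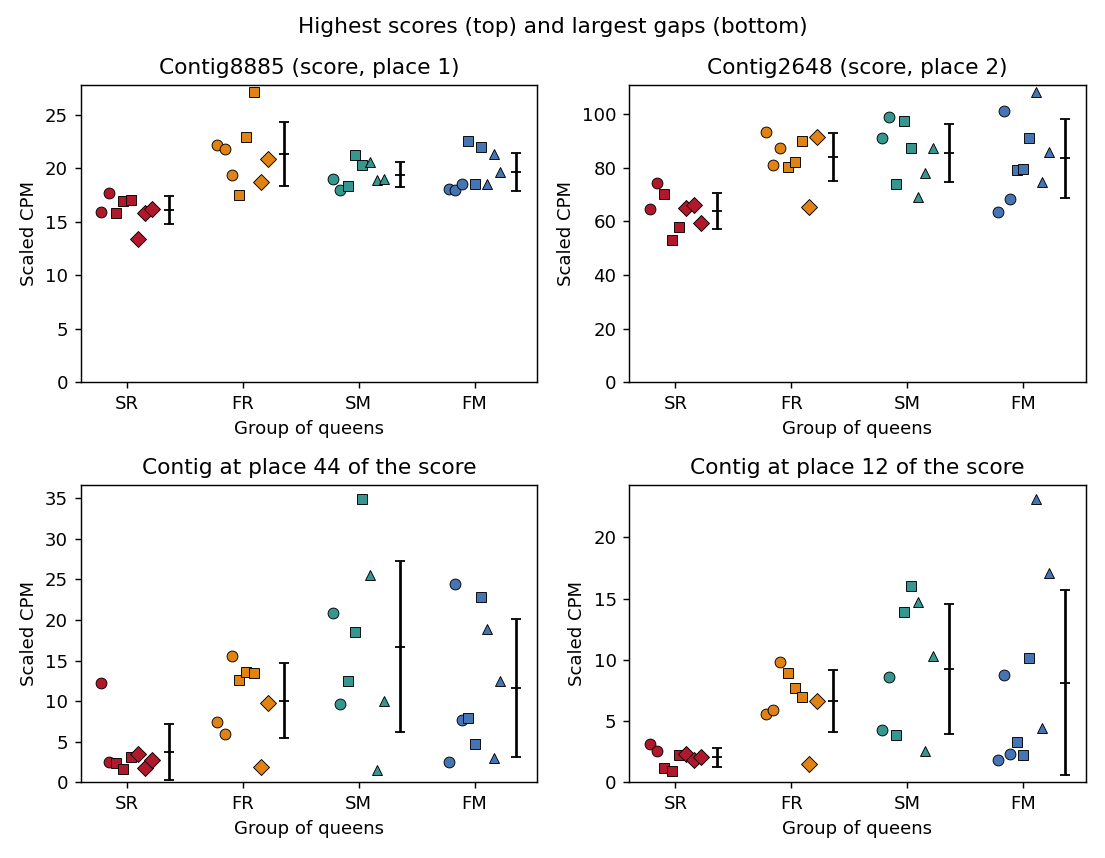
Scaled CPM of 4 contigs by group (SR, FR, SM, FM), with 1 point per queen and bars giving the mean ± SD; circles are queens of colony C2, squares C3, triangles C7 and diamonds C9. SR queens are mostly lowest, and in each panel at least 1 queen of another group lies within the SR range.

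Low levels were not found in SR queens alone. In none of the 100 contigs did all SR queens lie below all other queens, and in 10 they lay below all FR queens, compared with 23 (0.586%) of the 3924 contigs considered. For each contig, between 1 and 21 of the other 25 queens lay at or below the highest SR queen, with a median of 8. Averaged over the 100 contigs, y was -1.49, -1.43 and -1.36 as the lowest, median and highest value in SR queens, -1.31, -0.87 and -0.77 in FR queens, -1.32, -0.97 and -0.82 in SM queens, and -1.39, -0.97 and -0.77 in FM queens. SR queens were the tightest group, with a mean of -1.42 ± 0.04 (SD, n = 8), against -0.94 ± 0.19 in FR (n = 8), -1.03 ± 0.18 in SM (n = 8) and -1.04 ± 0.23 in FM queens (n = 9). FM queen 5 lay inside the SR range at -1.39. The share of all reads in the 100 contigs was 0.848 to 1.08% in SR, 1.09 to 1.63% in FR, 0.890 to 1.72% in SM and 0.830 to 1.69% in FM queens. SM and FM queens overlapped SR queens. FR queens nearly met them, with 1.0842% in SR queen 45 and 1.0857% in FR queen 37. Since low SR levels chose the contigs, nothing is read from the order of these shares.

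**Figure D3:**
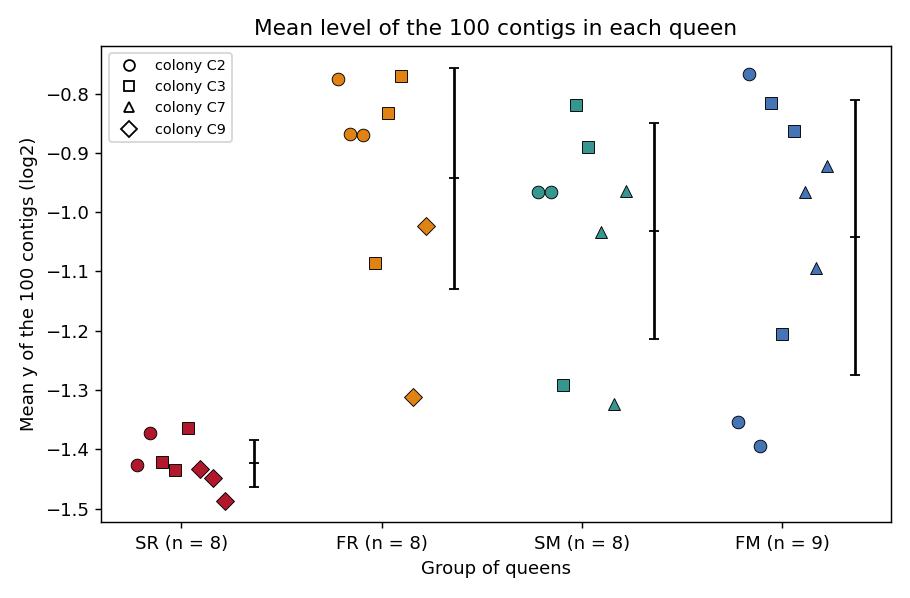
Mean y over the 100 contigs in each queen (log2 scale), by group in the order SR, FR, SM, FM, with the marker showing the colony and bars giving the mean ± SD. SR queens lie between -1.49 and -1.36, and FM queen 5 lies among them at -1.39.

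The number of contigs at or below the highest SR queen differed between the other queens. It was 87 of the 100 contigs in FM queen 2, 85 in FM queen 5, 77 in SM queen 19, 71 in FR queen 37, 67 in SM queen 25 and 52 in FM queen 9. In the other 19 queens it was 4 to 48, where 65.3 to 82.7% of all contigs considered lay at or below their highest SR queen. That share was 84.9% in FM queen 2, 86.3% in FM queen 5, 87.2% in SM queen 19, 93.1% in FR queen 37, 89.1% in SM queen 25 and 88.7% in FM queen 9. The count of the 100 contigs was near that share in FM queens 2 and 5 and below it in every other queen outside SR; since low SR levels chose the contigs, nothing is read from this. The single most abundant contig took 11.9% of the reads in FM queen 2, 11.3% in SM queen 25, 6.17% in SM queen 19, 6.00% in FM queen 9, 2.06% in FM queen 5 and 1.64% in FR queen 37. That share ran from 0.066 to 11.2% among SR queens and from 0.008 to 4.78% among FR queens. Its median was 6.84% in SR, 0.262% in FR, 1.61% in SM and 2.77% in FM queens. The part of this share in these counts and in the SR difference was not tested.

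The spread within groups, a small value of which the score favours, was smallest in SR queens. The median SD of y over the 100 contigs was 0.14 in SR, 0.18 in FR, 0.19 in SM and 0.25 in FM queens, beside 0.16, 0.20, 0.19 and 0.25 in the same order over all contigs considered. SR queens had the smallest SD of the 4 groups in 65 contigs, against 48.3% of all contigs considered.

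The contigs also varied together among queens of the same group, as did contigs of the other patterns. With group means removed, the median correlation between pairs of the 100 contigs over the 33 libraries was 0.375, and 93.4% of pairs were above 0. Over all contigs considered the median was 0.0104, with 51.3% of pairs above 0. In the 100 highest scoring contigs of other patterns, it was 0.327 with SR queens alone at the top, 0.608 with FR queens alone at the top and 0.546 with FR queens alone at the bottom. The median was 0.383 when colony was removed as well, and 0.344 to 0.392 when each library was left out. Within groups the median was 0.0803 in SR queens, 0.608 in FR, 0.411 in SM and 0.418 in FM queens, each over 8 or 9 libraries. All pairs share the same libraries and the same centring. Of the 100 contigs, 79 correlated above 0.5 with the mean of the other 99, and 2 correlated below 0. The identifiers do not show whether any of these contigs are parts of 1 transcript, and this was not tested. The leading axis of variation held 41.5% of the variance of the set, and 22.4% of that of the other contigs considered.

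The mean y of the set moved with features of the whole library. With group means removed (n = 33), it correlated with the leading axis of the other contigs at Pearson r = 0.863 (Spearman rho 0.841; r = 0.827 without the 2 farthest libraries). Its correlation with the number of contigs that had any read was 0.820 (rho 0.793; 0.782 without the 2 farthest). These counts were 6800 to 6973 in SR, 6882 to 7205 in FR, 6579 to 7078 in SM and 6669 to 7133 in FM queens. The correlation with the share of the most abundant contig was -0.587 (rho -0.603; -0.421 without the 2 farthest). For total reads it was 0.170 (rho 0.116; 0.105 without the 2 farthest) and for age 0.137 (rho 0.149; 0.0178 without the 2 farthest). In the SR queens alone, whose mean y spread least (SD 0.04), r was -0.150 with the leading axis, 0.369 with the number of contigs and -0.044 with the most abundant contig. In FR, SM and FM queens r was 0.979, 0.748 and 0.903 with the leading axis. With the number of contigs it was 0.909, 0.763 and 0.867, and with the most abundant contig -0.616, -0.921 and -0.620, in the same order. The part of these library features in the SR difference was not tested.

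Sets of the other patterns also moved with or against the low set. The 100 highest scoring contigs with SR queens alone at the top, chosen by the same score, had a mean y that correlated with that of the low set at -0.906 with group means removed (rho -0.850; -0.871 without the 2 farthest, n = 33). Within groups r was -0.504 in SR, -0.951 in FR, -0.950 in SM and -0.890 in FM queens. With each contig standardised before averaging, r with the low set was -0.882 for that set (rho -0.802; -0.836 without the 2 farthest). It was -0.771 for the 100 highest scoring contigs with FR queens alone at the bottom (rho -0.719; -0.718 without the 2 farthest) and 0.701 for those with FR queens alone at the top (rho 0.686; 0.623 without the 2 farthest). All these sets share libraries and centring. Of the contigs considered, 310 (7.9%) had SR queens alone at the top, 995 (25.4%) had FR queens alone at the top and 747 (19%) had FR queens alone at the bottom.

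The plot of the low set against the set with SR queens at the top and against the number of contigs with reads keeps the group means in, so its points also carry the difference between groups that chose the contigs, and no correlation is given for them.

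**Figure D4:**
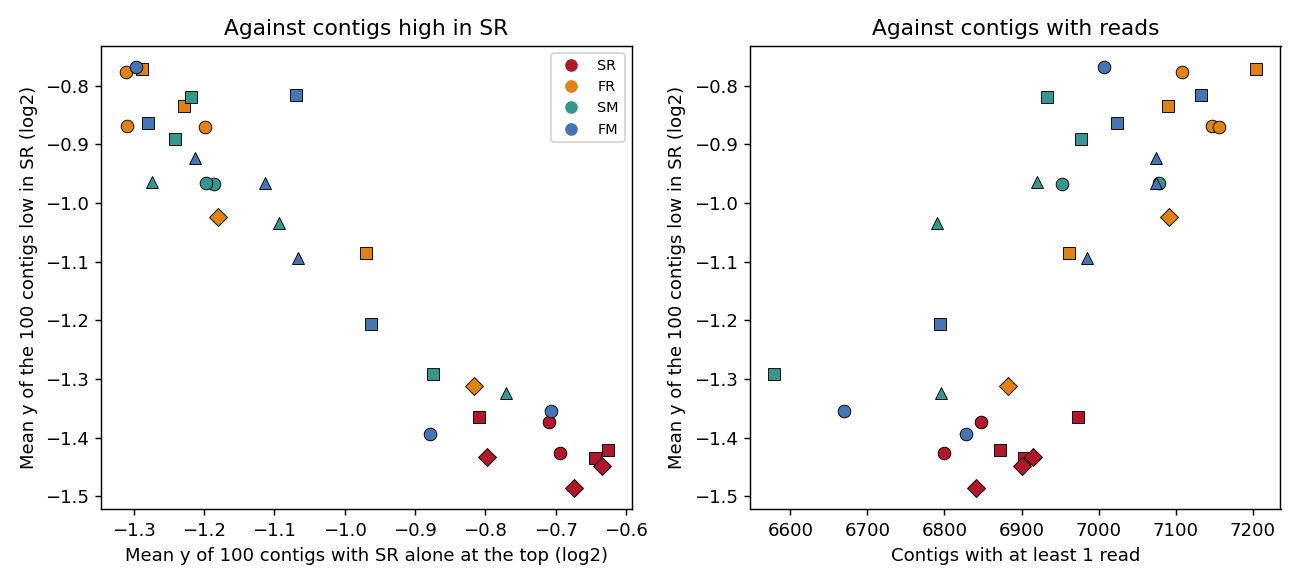
Mean y of the 100 contigs in each of the 33 queens (log2 scale, group means kept) against the mean y of the 100 contigs with SR queens alone at the top (left) and against the number of contigs with at least 1 read (right), with the colour showing the group and the marker the colony (circles C2, squares C3, triangles C7, diamonds C9). SR queens lie at the low end of the vertical axis, between -1.49 and -1.36, with FM queen 5 among them at -1.39.

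Many contigs outside the set varied like it. With group means removed, 603 (15.8%) of the other 3824 contigs correlated above 0.5 with the mean of the set over the 33 libraries, and 448 (11.7%) below -0.5. The most alike was Contig3703 (r = 0.867), with 399, 427 and 475 scaled CPM in SR, 453, 652 and 828 in FR, 405, 515 and 603 in SM and 427, 548 and 710 in FM queens. The next was Contig5343 (r = 0.860), with 21.2, 24.8 and 28.2 scaled CPM in SR, 26.8, 56.9 and 63.4 in FR, 26.0, 33.3 and 47.6 in SM and 18.2, 29.9 and 65.2 in FM queens. Both were outside the set because FR queens, alone at the top, were separated by the largest gap, and the SR range overlapped that of each other group.

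Colony gave a way of reading the contrast in queens that took no part in choosing the contigs. When the rule was applied without colony C2, 99 of the 100 contigs it chose were lower in SR than in FR queens of C2 (2 against 3 queens), with a median difference of -0.32, against 54.7% of all contigs considered and a median of -0.05. Left-out C3 gave 95 of 100 and a median of -0.33 (3 against 3 queens), against 55% and -0.04. Left-out C9 gave 80 of 100 and a median of -0.19 (3 against 2 queens), against 44.6% and 0.02. Of the contigs so chosen, 71, 62 and 65 belonged to the set when C2, C3 and C9 were left out. Against SM queens 87 of 100 were lower in C2 (median -0.17), where 49.9% of all contigs considered were lower, and 87 in C3 (median -0.21), against 49.7%. Against FM queens 77 were lower in C2 (median -0.09), against 57.3%, and 87 in C3 (median -0.30), against 49.5%. SR was the lowest of the 4 group means in 74 of 100 in C2, against 33.4% of all contigs considered, and in 75 of 100 in C3, against 25.2%. The contigs vary together, so these counts are not of independent contigs.

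**Figure D5:**
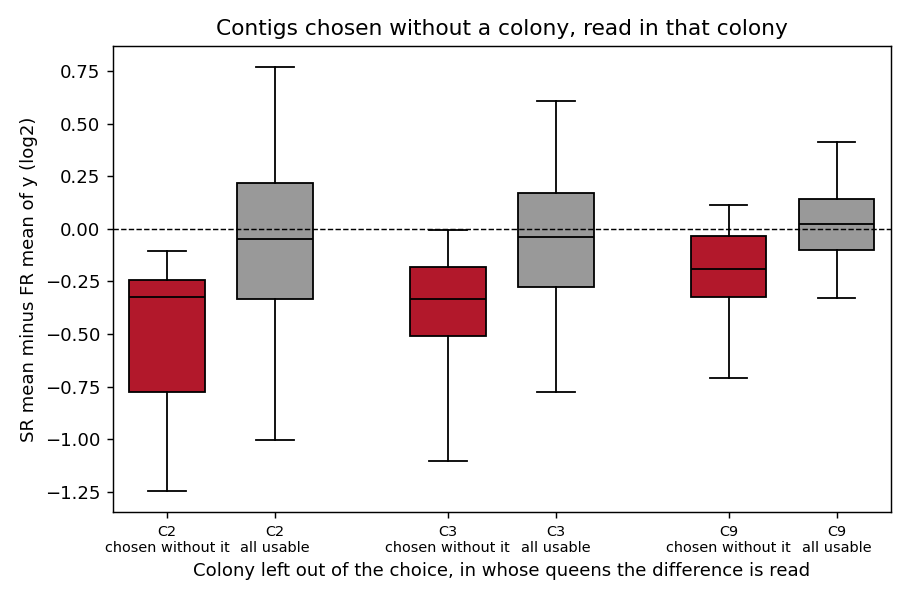
Difference in y between SR and FR queens of 1 colony (SR minus FR, log2 scale) for contigs chosen without that colony and for all contigs considered; boxes give the quartiles and whiskers the 5th to 95th percentiles. The chosen contigs have medians of -0.32 in C2, -0.33 in C3 and -0.19 in C9, against -0.05, -0.04 and 0.02 for all contigs.

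The set itself, read colony by colony, was chosen on these queens. In C2, 100 of the 100 contigs were lower in SR than in FR queens (median -0.39), where 54.9% of all contigs considered were lower. There 96 were lower than in SM queens (50% of all) and 90 lower than in FM queens (57.3% of all). In C3 the counts were 100 for FR queens (54.9% of all), 99 for SM queens (49.7% of all) and 100 for FM queens (49.7% of all). In C9, 97 were lower than in FR queens (median -0.26), beside 44.6% of all. Since the group means of these queens chose the contigs, nothing is read from these counts.

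All 33 libraries were then fitted together with edgeR's quasi-likelihood test, with group and colony as terms, and p-values adjusted by Benjamini-Hochberg over 5606 contigs; a contig was called at an adjusted p of 0.05. For SR queens against the other groups the counts describe the selection. Lower levels were called in 80 of the 100 contigs against FR queens, where 15.2% of all contigs were called lower. Against SM queens edgeR called 0 (0% of all) and DESeq2 called 8 (0.526% of all). By edgeR 72 of the 100 had an unadjusted p under 0.05, beside 594 (10.6%) of the 5606 contigs tested. Against FM queens 2 were called lower (0.0357% of all), and 7 by DESeq2 (0.393% of all). Leaving out SM queen 25 gave 4 against SM queens (0.124% of all), and leaving out FM queen 6 gave 1 (0.0537% of all). Against FM queens, leaving out FM queen 5 gave 4 (0.107% of all). Leaving out FM queen 10, FR queen 38 or SR queens 40, 44 or 45 gave 1 against FM queens (0.0177 to 0.0354% of all).

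The 3 other groups could be compared on contrasts that the rule did not choose by direction, although it limited how far apart they could lie. Between FR and FM queens 3 of the 100 passed the test, of which 2 were higher and 1 lower in FR queens, where 17.3% of all contigs were called. The estimated log2 fold change was positive in 72 of the 100 (50.7% of all) with a median of 0.08 (0.01 over all), and it was positive in 83 with upper-quartile scaling and 87 with total counts, which moved the median of all contigs to 0.10. Between FR and SM queens 0 were called by edgeR (17.7% of all), with 4 of the 100 at an unadjusted p under 0.05 (34.4% of all) and 0 by DESeq2 (23% of all), and 72 were positive (53.2% of all). Between SM and FM queens edgeR called 0 (0% of all) and DESeq2 called 0 (0.0179% of all). By edgeR 1 of the 100 had an unadjusted p under 0.05, beside 564 (10.1%) of the 5606 contigs tested. Leaving out FR queen 32 gave 13 calls between FR and FM queens, where 22.5% of all contigs were called, and 4 between FR and SM queens, where 22.3% were. Leaving out FM queen 4 gave 5 between FR and FM queens (27.1% of all), and leaving out FM queens 2 or 9 or FR queens 28, 33 or 36 gave 1 (9.60%, 11.1%, 9.27%, 8.27% and 8.10% of all). In each of these fits the share called was smaller in the 100 contigs than over all contigs.

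The contig called lower in FR queens was Contig562, with 3.43, 4.47 and 5.41 scaled CPM in FR and 3.27, 5.48 and 8.62 in FM queens. The ranges overlapped, and the log2 fold change was -0.52 ± 0.14 (SE; adjusted p = 0.0138 by edgeR). With total counts the adjusted p was 0.0882, and a fit of FR and FM queens alone gave 0.0838. It is 1 of the 2 contigs whose correlation with the rest of the set was below 0 (r = -0.147). Contig6187 had 336, 540 and 621 scaled CPM in FR and 337, 403 and 504 in FM queens, with a log2 fold change of 0.34 ± 0.10 (SE; adjusted p = 0.0226 by edgeR). Its call was lost without FM queens 2, 5 or 9, without FR queens 28, 33 or 36, and in a fit of FR and FM queens alone (adjusted p = 0.0649). Contig9955 had 5.80, 6.73 and 8.16 scaled CPM in FR and 5.10, 6.47 and 7.33 in FM queens, with a log2 fold change of 0.19 ± 0.07 (SE; adjusted p = 0.0423 by edgeR), and its call was lost in 15 of the 33 fits that each left out 1 library. Without colony in the fit its adjusted p was 0.573.

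Calls between colonies, adjusted for group, were few both in the set and over all contigs tested. The score favours a small spread within groups, to which colony differences add, so nothing is read from small shares in the set. In C3 relative to C2 queens, 1 contig was called (2.19% of all): Contig4406 was higher, with 8.09, 9.70 and 12.2 scaled CPM in the 12 C3 queens and 6.99, 8.13 and 9.53 in the 10 C2 queens, a log2 fold change of 0.28 ± 0.07 (SE; adjusted p = 0.0162 by edgeR). With total counts its adjusted p was 0.235. Leaving out FR queen 32 gave 3 calls (1.96% of all). Leaving out FM queens 2 or 14, SM queens 21 or 25 or SR queen 40 gave 2 (1.63 to 2.26% of all). The estimates were positive in 71 of the 100 contigs (51.5% of all), and in 49 with total counts. In C7 relative to the mean of C2 and C3, edgeR called 0 (0.464% of all), with 11 of the 100 at an unadjusted p under 0.05 (9.97% of all), and DESeq2 called 1 (1.86% of all). In C9 relative to the mean of C2 and C3, edgeR called 0 (0.856% of all), with 19 at an unadjusted p under 0.05 (13% of all), and DESeq2 called 1 (2.2% of all). The C9 estimates were negative in 85 of the 100, with a median of -0.13, beside 49.3% of all contigs, and in 74 without FR queen 37. Leaving out FR queens 31 or 32 gave 1 call (0.798% and 1.24% of all).

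The difference between SR and FR queens in C9 was set against its mean in C2 and C3 by an interaction term over the 16 queens of both groups. Of the 100 contigs 0 were called by edgeR (0.264% of 5299), with 12 at an unadjusted p under 0.05 (21.8% of all), and DESeq2 called 5 (7.54% of all). Leaving out FR queen 38 gave 7 calls (9.25% of all), FR queen 32 gave 5 (8.05% of all) and SR queen 49 gave 1 (2.18% of all), each a smaller share than over all contigs. For age, fitted in the 17 SM and FM queens, 0 of the 100 were called by edgeR (0.267% of 5241), with 3 at an unadjusted p under 0.05 (11.8% of all), and DESeq2 called 1 (1.89% of all). Leaving out FM queen 4 gave 1 call (0.289% of all). Differences in level with age or between colonies within a group lower the score. Nothing is therefore read from the smaller shares in the set.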

How the data were processed

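Brain RNA of 33 queens was sequenced, and the authors deposited raw read counts per contig and a sheet of scores made from those counts. Per the labels' protocols, mRNA was selected with oligo(dT), and each library came from 1 queen. FastQC, TopHat, SAMtools and edgeR are listed, without versions or roles, in the submitters' processing notes; for the counting program and genome build, nothing is given in the sources used here. The deposited score of a contig had each library and then each contig centred and divided by its SD, and it was used only as an alternative. The main values were counts: CPM with a pseudocount of 1 for the selection, and edgeR 4.0.16 (R 4.3.3) with TMM scaling, filterByExpr (minimum count 10) and robust quasi-likelihood fitting. DESeq2 1.42.0 was an alternative. The fits and the rule were tested on simulated data. No libraries were identical: among 528 pairs, chi-square per degree of freedom was at least 82.7. P-values measure the spread over queens, and several queens come from 1 colony.

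Members and lists were chosen with earlier results of these data known. Contigs were named by a rule: the 2 highest scores, members called in comparisons not used for selection (at most 2 in each direction), and the 2 outside contigs most like the set. Members with the largest gaps and at the edge are given by place. Alternatives were other scalings, filters, models and selections, and leaving out each library. Correlations without each library, within groups and with colony removed were added after seeing the data.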

Additional observations from a re-analysis of the deposited data

Results flagged for a closer look

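Over 55 sets of values within 1 group (the scaled CPM of 10 contigs, the mean level of the set, its share of reads, the number of its contigs at or below the highest SR queen and the number of contigs with reads), 5 had a queen at one end that stood far from the nearest other queen relative to the range of the group. Chance gives such a queen in about 1 in 20 groups. In Contig8885, SR queen 47 had 13.4 scaled CPM and the nearest SR queen 15.8. In Contig2648, FR queen 37 had 65.6 and the nearest FR queen 80.4. In the contig placed 44th in the order of the score, SR queen 39 had 12.2 and the nearest SR queen 3.48. In Contig5343, FM queen 4 had 65.2 and the nearest FM queen 39.4. In Contig4406, FR queen 36 had 12.2 and the nearest FR queen 9.53.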

How the results depend on the processing

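Of the 100 contigs, the rule named 44 again when ranking by the gap alone, 34 with the deposited scaled scores, 62 without colony C3 and 65 without C9; leaving out each library kept 84 to 98. Contigs lower in SR than FR queens of a left-out colony were counted again under 2 other selections, a smaller pseudocount and TMM scaling without centring. They numbered 99 to 100 in C2, 88 to 92 in C3 (95 in the main selection) and 80 to 86 in C9. The share over all contigs was not taken under these selections. Calls of SR against FR queens ran from 61 to 98 over all settings. With only colonies C2 and C3, which gave 61, 17.9% of all contigs were called lower. With total counts, which gave 98, 27.4% were. Leaving out SR queen 39 (9.68% of all) or FR queen 38 (11.5%) gave the fewest, 66, and leaving out FM queen 6 the most, 83 (17%). For SR against SM queens DESeq2 gave 8 (0.526% of all), no colony term 11 (0.321%) and only the compared groups 2 (0.135%). Fits without each library gave 0 to 4 (0 to 0.124% of all). For SR against FM queens DESeq2 (0.393% of all) and no colony term (0.178%) gave 7, and no filter on low counts 1 (0.0113%). Only colonies C2 and C3 or only the compared groups gave 0 (0% of all), and leaving out each library 1 to 4 (0.0177 to 0.107%). For FR against FM queens upper-quartile scaling gave 7 (17.2% of all), total counts 1 (10.4%), DESeq2 5 (23%) and only the compared groups 0 (7.43%). There, leaving out each library gave 1 to 13 (8.1 to 27.1% of all). For FR against SM queens only the compared groups gave 1 (24.2% of all), and leaving out each library 0 to 4 (7.71 to 23.9%). SM against FM queens stayed at 0 in every fit run (0 to 0.232% of all). For C3 against C2, upper-quartile scaling gave 2 (2.27% of all) and a filter of 1 CPM in 8 libraries 2 (2.37%). Total counts gave 0 (1.57%), DESeq2 3 (3.7%) and leaving out each library 1 to 3 (1.43 to 2.35%). For C7 DESeq2 gave 1 (1.86% of all), and leaving out each library 0 (0.215 to 0.752%). For C9 upper-quartile scaling (0.91% of all) and DESeq2 (2.2%) gave 1, and leaving out each library 0 to 1 (0.407 to 1.24%). For the C9 difference DESeq2 gave 5 (7.54% of all), and leaving out each library 0 to 7 (0 to 9.25%). For age DESeq2 gave 1 (1.89% of all), and leaving out each library 0 to 1 (0 to 0.289%). The cause of these changes was not tested. The median log2 fold change of all contigs in SR against FR queens was -0.22 with total counts and -0.04 with TMM. No analysis paired by queen was possible, because each queen gave 1 library in 1 group. Colony, which groups shared in part, was a term in the main fits. Contigs near 1 CPM, and 2 or 3 queens per group and colony, limit the precision.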
